A study of Mus musculus with 35 samples.

Results

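The insulin-like growth factor (IGF) axis was followed in CD45+ cells of the mouse brain through 9 genes. These were the ligand Igf1, the receptors Igf1r, Igf2r and Insr, and the binding proteins Igfbp2, Igfbp3, Igfbp4, Igfbp5 and Igfbp7. They were taken by gene symbol from the 55401 gene identifiers in the mRNA count table, and all 9 were among the 17612 genes with at least 0.5 CPM (fragment counts scaled to the size of the library) in at least 5 mice. The rule itself uses names and no measured value, but the 9 genes were chosen with earlier results of these data known.

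Every mouse was a wild-type C57BL/6 animal, from which CD45+ cells of the whole brain were collected by immunopanning, that is, capture of dissociated cells on a dish coated with antibody. There were 3 ages, postnatal day 6 (P6, 4 females and 6 males), postnatal day 15 (P15, 6 females and 6 males) and 8 weeks (6 females and 6 males), with 1 mRNA library per mouse. These 34 mice were compared without P6 female 6, and that mouse was added back as an alternative. The study removed 1 mouse as an outlier, which the text of its paper does not name. The question was how each gene of the axis differed between the ages and between the sexes.

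IGF1 and insulin are secreted hormones that act through the related receptor tyrosine kinases IGF1R and INSR, which recruit IRS adaptors and activate the PI3K and AKT pathway and the RAS and MAPK pathway. IGF2R, also the cation-independent mannose 6-phosphate receptor, carries IGF2 to lysosomes and has no kinase. The IGF binding proteins are secreted, hold IGFs outside the cell, and release them when proteases cut the binding protein. In the developing brain IGF1 is known as a growth and survival factor for neurons and oligodendrocytes, and microglia are among its sources in the early postnatal period. CD45 is found on all white blood cells, so border macrophages and monocytes can be collected together with microglia.

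Between 23316107 and 38965078 fragments were counted on genes per mouse. A level of 3 counts corresponded to 0.0745 to 0.137 CPM. Among the cell type marker lists, the 8 microglial markers summed to between 6310 and 11300 CPM at P6, 13700 and 27400 CPM at P15 and 18300 and 26000 CPM at 8 weeks, and 8 of 8 rose from P6 to 8 weeks. Markers of border macrophages and monocytes (8 genes, 280 to 1570 CPM over all mice), endothelium (8 genes, 46.5 to 332 CPM), mural cells (6 genes, 129 to 1180 CPM), fibroblasts (5 genes, 13.4 to 224 CPM), astrocytes (6 genes, 458 to 6850 CPM), oligodendrocytes (7 genes, 270 to 3320 CPM), neurons (6 genes, 48.4 to 926 CPM), immature neurons (5 genes, 78.4 to 1740 CPM) and choroid plexus (4 genes, 1.87 to 178 CPM) were counted as well, and none of these markers was at or under 3 counts in every mouse. In such bulk libraries, fewer cells of a type and less RNA per cell cannot be told apart.

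The 4 largest changes of the axis over the whole period were falls, of the ligand and of 3 binding proteins. From P6 to 8 weeks Igf1 fell 7.93-fold, Igfbp4 3.95-fold, Igfbp5 3.47-fold and Igfbp3 3.08-fold, and these 4 of the 9 genes fell past a 2-fold threshold (edgeR glmTreat, FDR below 0.05). With DESeq2 it was 3 of the 9, since Igfbp3 did not pass (FDR = 0.142 at 2-fold). Without the threshold, 7 of the 9 genes fell and 1, Insr, rose. Igfbp7 passed neither test. Of all genes tested, 12.4% fell past 2-fold and 11.5% rose past it, while 36.6% fell and 37.8% rose without the threshold. The median log2 fold change (log2FC) of the 9 genes was −1.21, against 0.04 for all genes.

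The fall was spread over both intervals. From P6 to P15, 5 of the 9 genes fell and 1 rose, beside 31.4% and 30.4% of all genes, and 1 (Igf1) fell past 2-fold, beside 4.85% of all genes that fell past 2-fold and 4.87% that rose past it. From P15 to 8 weeks, 5 fell and 1 rose, beside 23.9% and 24% of all genes, and 2 (Igfbp3 and Igfbp4) fell past 2-fold, beside 3.07% of all genes that fell past it and 1.2% that rose. The medians of the 9 genes were −0.36 and −0.65 in the 2 intervals, and those of all genes −0.01 and 0.02.

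**Figure D1:**
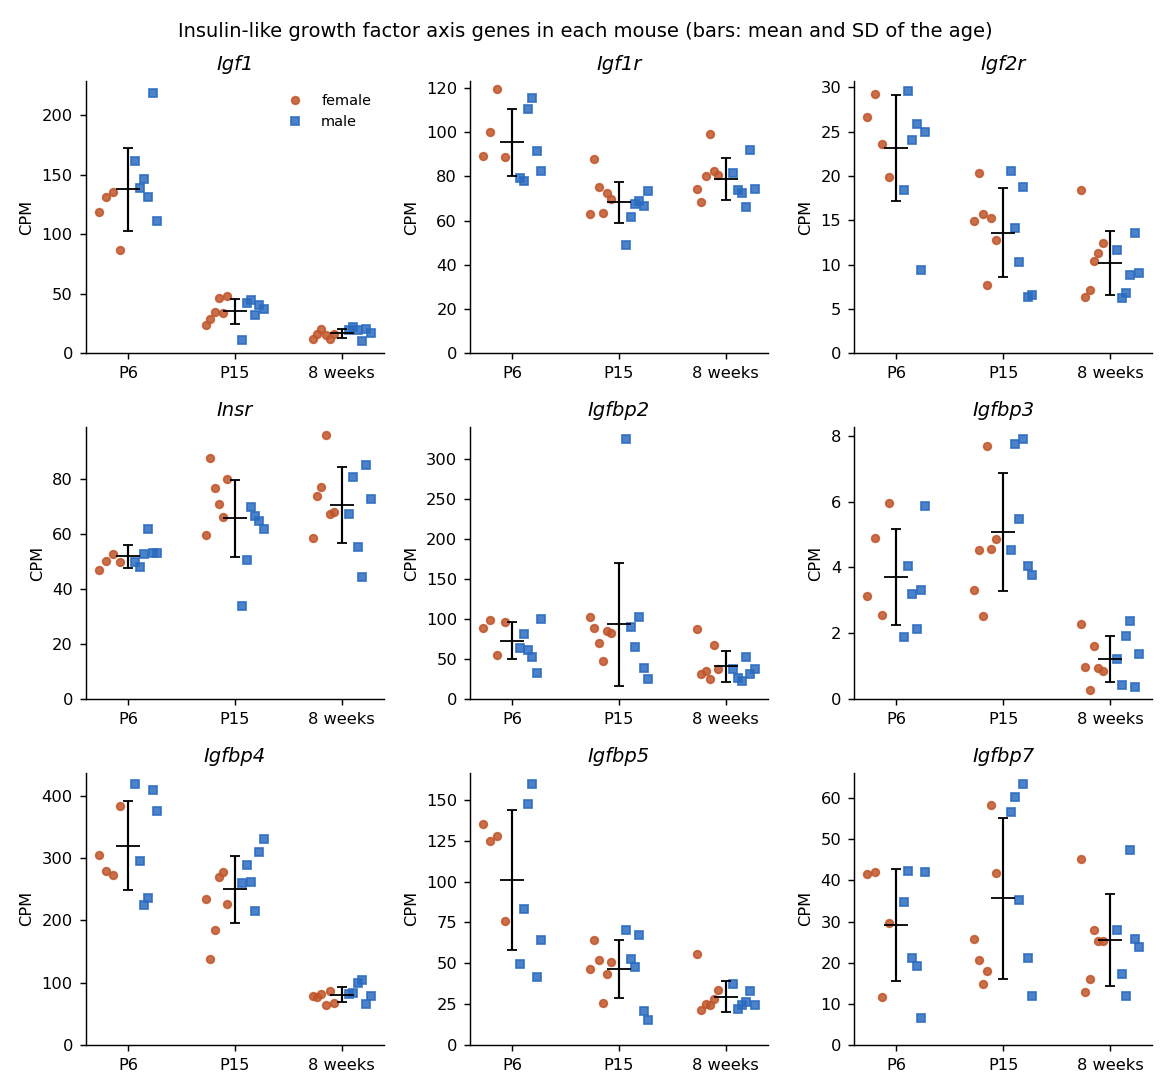
CPM of each of the 9 genes (y axis, linear, from 0) at P6, P15 and 8 weeks (x axis), with 1 point per mouse (circles, females; squares, males) and the mean and SD of each age as black bars. Igf1 lay above 86 CPM in each P6 mouse and below 22 CPM in each 8-week mouse, Igfbp4 fell mainly after P15, and 1 P15 male stood at 324 CPM of Igfbp2.

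**Figure D2:**
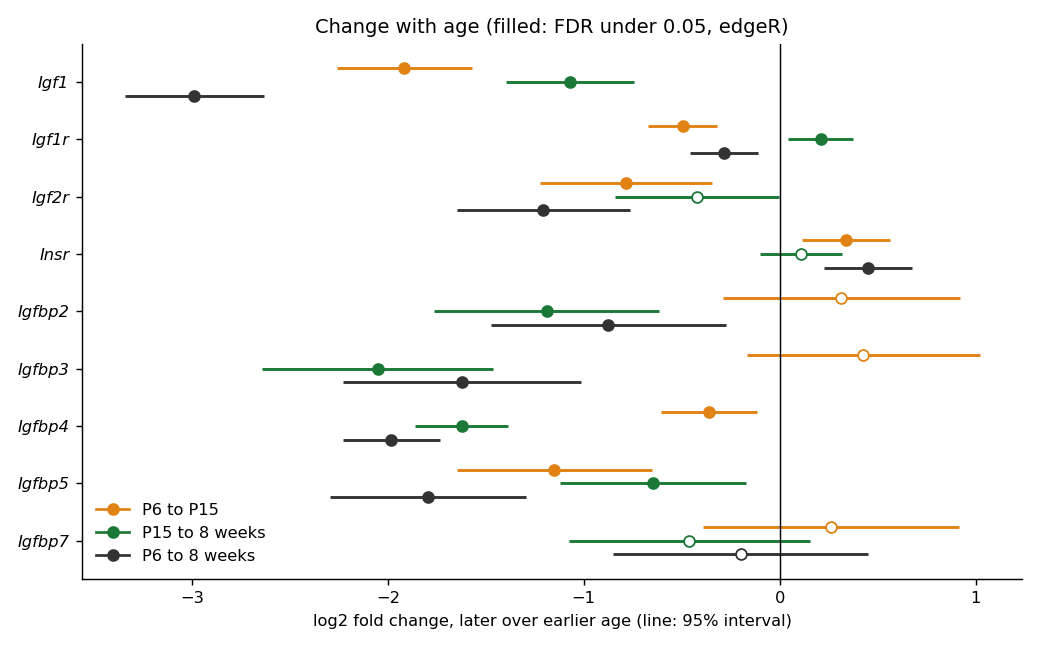
The log2 fold change of each gene (x axis, later over earlier age) with its 95% interval, for P6 to P15, P15 to 8 weeks and P6 to 8 weeks, from the edgeR fit over 34 mice. Filled points had an FDR below 0.05. The points of Igf1, Igf2r, Igfbp4 and Igfbp5 lie left of 0 in all 3 comparisons, and those of Insr lie right of 0.

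Of the 9 genes, Igf1 and Igfbp4 were those whose P6 and 8-week mice did not overlap in CPM, so their promoter windows are shown. RefSeq (GRCm38.p6) gave a window of 300 bases, 250 before and 50 after the annotated start, for 8 of the 9 genes. None was given for Insr. Capitals mark 2 short motifs, GAGGAA (the core of many ETS family sites, among them that of the myeloid factor PU.1) and TATAAA (the TATA box).
Igf1, plus strand, chr10:87860861-87861160: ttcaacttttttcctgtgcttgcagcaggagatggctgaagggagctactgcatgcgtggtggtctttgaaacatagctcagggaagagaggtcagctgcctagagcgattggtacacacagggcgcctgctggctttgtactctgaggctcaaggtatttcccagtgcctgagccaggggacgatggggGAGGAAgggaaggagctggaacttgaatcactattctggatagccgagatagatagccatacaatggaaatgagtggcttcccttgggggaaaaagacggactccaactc
Igfbp4, plus strand, chr11:99040994-99041293: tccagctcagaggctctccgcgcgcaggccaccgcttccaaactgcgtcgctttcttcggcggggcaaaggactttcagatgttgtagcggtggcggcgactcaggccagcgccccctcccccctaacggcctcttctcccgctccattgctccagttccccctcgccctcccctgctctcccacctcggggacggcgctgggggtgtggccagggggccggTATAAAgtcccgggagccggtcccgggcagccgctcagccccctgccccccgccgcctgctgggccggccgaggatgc
The Igf1 window held 1 GAGGAA and no TATAAA, and the Igfbp4 window held 1 TATAAA and no GAGGAA, with both strands searched. Over 32544 such windows, 28.1% held GAGGAA and 13.6% held TATAAA, so each match was a common one. In addition CCGCCC (the GC box, 35.9% of windows) and CACGTG (an E-box, 7.17% of windows) were searched, and neither was in these 2 windows. The Igfbp4 window was richer in G and C (71.3%) than the Igf1 window (52.3%), with a median of 53% over all windows. The Igf1 window lies inside the GENCODE gene, which starts upstream at position 87858265, so it is not the window of the most upstream annotated start.

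Igf1 (ENSMUSG00000020053, GRCm38 chr10:87858265-87937042, plus strand), the growth factor itself, fell at each step. At P6 it ranged from 86.7 to 219 CPM with a median of 134 CPM. At P15 the lowest mouse had 11.5, the median was 36.0 and the highest had 48.2 CPM. At 8 weeks the range was 10.6 to 21.9 CPM, with a median of 16.9 CPM. Each P6 mouse was therefore above each older mouse, and the 2 older ages overlapped only through P15 male 1 (11.5 CPM), since the next P15 mouse had 24.1 CPM.

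The mean CPM of Igf1 was 138 ± 34.9 (SD, n = 10) in P6 mice, 35.4 ± 10.5 (n = 12) in P15 mice and 16.9 ± 3.64 (n = 12) in 8-week mice. The log2FC was −1.92 (SE 0.169, edgeR FDR = 2.46e-11) from P6 to P15 and −1.07 (SE 0.161, FDR = 3.14e-06) from P15 to 8 weeks. The first step passed the 2-fold threshold (FDR = 1.16e-05) and the second did not (FDR = 1). Over the whole period it was −2.99 (SE 0.175, FDR = 5.05e-16), and 3.91% of all genes had a more negative value. Of the 8 microglial markers, 8 rose from P6 to P15, and 2 rose and 1 fell from P15 to 8 weeks, when the marker sums of the ages overlapped. The sums of the 8 border macrophage and monocyte markers were lower at the later ages, with means of 1030, 800 and 476 CPM. Gene by gene, however, 4 of these 8 rose and 3 fell from P6 to P15, and 2 rose and 6 fell from P15 to 8 weeks. P6 male 5 was the highest P6 mouse, and P15 male 1 the lowest P15 mouse, for both the sum of these markers and Igf1. The part of either marker list in the fall of Igf1 was not tested.

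Among the receptors, Igf1r (ENSMUSG00000005533, chr7:67952827-68233668, plus strand), the signalling receptor for IGF1, had the smallest fall over the whole period. Its level ran from 77.8 to 120 CPM at P6 (median 90.3), from 48.9 to 87.8 CPM at P15 (median 68.2) and from 66.2 to 99.3 CPM at 8 weeks (median 77.3). The ages overlapped in all 3 comparisons. It fell from P6 to P15 (log2FC −0.50, SE 0.0856, FDR = 9.32e-06) and lay below P6 at 8 weeks (−0.29, SE 0.0857, FDR = 0.00359). From P15 to 8 weeks it rose by 0.21 on the log2 scale (SE 0.0812, FDR = 0.0329). That rise lost its call without P15 male 1 (0.15, FDR = 0.0969), without P6 female 2 (FDR = 0.0611), 3 (FDR = 0.051) or 5 (FDR = 0.0576), with scaling by library size alone (FDR = 0.0849) and with no filter on low counts (FDR = 0.0788).

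Insr (ENSMUSG00000005534, chr8:3122061-3279617, minus strand), the insulin receptor, was the only member of the 9 that rose from P6 to 8 weeks. It ranged from 46.9 to 62.1 CPM at P6 (median 51.4), from 33.9 to 87.8 CPM at P15 (median 66.4) and from 44.3 to 95.9 CPM at 8 weeks (median 70.3). The P6 mice were tightly grouped, with a coefficient of variation of 8.1%, against 21.3% at P15 and 19.7% at 8 weeks, and lay inside the ranges of both older ages. The log2FC was 0.34 (SE 0.11, FDR = 0.00837) from P6 to P15, 0.11 (SE 0.103, FDR = 0.387) from P15 to 8 weeks and 0.45 (SE 0.111, FDR = 0.000522) over the whole period. With library size alone the first of these was 0.22 (FDR = 0.122).

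The balance between these related receptors changed with age as a result. The ratio of Igf1r to Insr, each in CPM per kb of exon, had a median of 1.49 (1.26 to 1.85) at P6, 0.842 (0.713 to 1.18) at P15 and 0.927 (0.746 to 1.22) at 8 weeks. Each P6 mouse thus had more Igf1r than any mouse of the older ages relative to Insr, and P15 and 8 weeks overlapped. This ratio does not depend on the scaling between mice, and it was not tested.

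Igf2r (ENSMUSG00000023830, chr17:12682406-12769664, minus strand), the lysosomal receptor for IGF2, was the lowest of the receptors per kb of exon at each age. Its range was 9.43 to 29.5 CPM at P6 (median 24.5), 6.32 to 20.6 CPM at P15 (median 14.5) and 6.23 to 18.4 CPM at 8 weeks (median 9.72). It fell from P6 to P15 (log2FC −0.79, SE 0.215, FDR = 0.00219) and from P6 to 8 weeks (−1.21, SE 0.216, FDR = 9.4e-06), not past 2-fold (FDR = 0.214). From P15 to 8 weeks the log2FC was −0.42 (SE 0.206, FDR = 0.0898), and without 8-week female 1, the highest mouse of that age, it was −0.53 (FDR = 0.0316). The antisense gene Airn overlaps Igf2r on the opposite strand without sharing exon bases, and fragments were counted by strand.

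Of the binding proteins, Igfbp4 (ENSMUSG00000017493, chr11:99041244-99054392, plus strand), the substrate of the protease PAPPA, fell mainly after P15. It ranged from 225 to 420 CPM at P6 (median 301), from 138 to 331 CPM at P15 (median 261) and from 64.0 to 105 CPM at 8 weeks (median 80.0). All 8-week mice were below every younger mouse. The log2FC was −0.36 (SE 0.12, FDR = 0.0103) from P6 to P15, −1.62 (SE 0.116, FDR = 8.25e-13) from P15 to 8 weeks and −1.98 (SE 0.122, FDR = 1.53e-15) over the whole period. The last of these passed the 2-fold threshold (FDR = 3.16e-09), as did the step after P15 (FDR = 3.25e-05).

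Igfbp5 (ENSMUSG00000026185, chr1:72857932-72874884, minus strand), a binding protein that also attaches to extracellular matrix, fell in both intervals. At P6 its range was 41.4 to 160 CPM (median 104), at P15 it was 15.2 to 70.1 CPM (median 49.1) and at 8 weeks 21.3 to 55.5 CPM (median 25.8). The ages overlapped throughout. The log2FC was −1.15 (SE 0.243, FDR = 0.000147), then −0.65 (SE 0.232, FDR = 0.0223), and −1.80 (SE 0.246, FDR = 1.05e-07) from P6 to 8 weeks, where it passed 2-fold (FDR = 0.00151). Under limma-voom the step after P15 was −0.57 (FDR = 0.0561).

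Igfbp3 (ENSMUSG00000020427, chr11:7206086-7213923, minus strand), the main IGF carrier of blood plasma, was the lowest of the 5 binding proteins among the 9 genes per kb of exon, and its fall came after P15. It ranged from 1.88 to 5.96 CPM at P6 (median 3.26), from 2.53 to 7.89 CPM at P15 (median 4.54) and from 0.263 to 2.37 CPM at 8 weeks (median 1.11), the last from 9 to 83 counts per mouse. All 8-week mice were below all P15 mice and overlapped the P6 mice. The log2FC was 0.43 (SE 0.291, FDR = 0.205) from P6 to P15, −2.05 (SE 0.29, FDR = 1.11e-06) from P15 to 8 weeks and −1.62 (SE 0.298, FDR = 1.36e-05) from P6 to 8 weeks. Both falls passed 2-fold, with an FDR of 0.00298 and 0.0246, though with DESeq2 the fall from P6 did not (FDR = 0.142).

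Igfbp2 (ENSMUSG00000039323, chr1:72824503-72852474, plus strand), a binding protein prominent in the developing brain, lies beside Igfbp5 on chromosome 1. Its range was 33.0 to 99.5 CPM at P6 (median 72.8), 25.3 to 324 CPM at P15 (median 83.7) and 22.2 to 87.8 CPM at 8 weeks (median 36.4). P15 male 1, at 324 CPM, stood far above the next P15 mouse at 103 CPM. The log2FC was 0.31 (SE 0.296, FDR = 0.365) from P6 to P15 and −1.19 (SE 0.282, FDR = 0.000975) from P15 to 8 weeks. Without P15 male 1 these were −0.064 (FDR = 0.825) and −0.84 (FDR = 0.00304). From P6 to 8 weeks it fell by 0.87 on the log2 scale (SE 0.294, FDR = 0.00852).

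Igfbp7 (ENSMUSG00000036256, chr5:77349240-77408041, minus strand), a secreted protein of vessels and matrix with weak IGF binding, passed no test between ages. It ranged from 6.52 to 42.2 CPM at P6 (median 32.2), from 12 to 63.4 CPM at P15 (median 30.6) and from 11.9 to 47.4 CPM at 8 weeks (median 25.3). The spread within an age was wide, with coefficients of variation of 46.8%, 54.9% and 44%. The log2FC from P6 to 8 weeks was −0.20 (95% interval −0.85 to 0.45, FDR = 0.581). The exons of Igfbp7 share 85 bases with Polr2b on the opposite strand.

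Counting the ranges alone, 2 of the 9 genes did not overlap between P6 and 8 weeks (Igf1 and Igfbp4), beside 29.6% of all genes. From P6 to P15 it was 1 gene (Igf1), beside 13% of all genes, and from P15 to 8 weeks 2 genes (Igfbp3 and Igfbp4), beside 3.37%.

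Per kb of exon, Igfbp4, Igfbp2 and Igfbp7 had the highest means of the 9 genes at each age, while Igfbp3 was last or next to last. At P6 the order was Igfbp4 (72.6 ± 16.2 CPM per kb, SD), Igfbp2 (39.5 ± 12.5), Igfbp7 (24 ± 11.2), Igfbp5 (16.8 ± 7.15), Igf1 (13.9 ± 3.52), Igf1r (5.68 ± 0.905), Insr (3.78 ± 0.306), Igf2r (2.49 ± 0.643) and Igfbp3 (1.18 ± 0.47). From Igf1 to Insr no neighbours overlapped, nor did Insr and Igf2r, while every other pair of neighbours overlapped at least in part. At P15 Igfbp4 (56.6 ± 12.2), Igfbp2 (50.6 ± 41.5) and Igfbp7 (29.5 ± 16.2) led, and every pair of neighbours overlapped. The mean of Igf1 lay below those of both kinase receptors at P15 (3.57 ± 1.06, above Igf1r in 5 of 12 mice) and at 8 weeks (1.71 ± 0.367).

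At 8 weeks Igfbp2 (22.2 ± 10.4 CPM per kb), Igfbp7 (21.1 ± 9.3) and Igfbp4 (18.3 ± 2.82) headed the order and overlapped one another. Below them, without overlap, came Insr (5.13 ± 1.01), Igfbp5 (4.94 ± 1.58) and Igf1r (4.69 ± 0.565), which overlapped. Igf1 lay below Igf1r without overlap, and above Igf2r (1.09 ± 0.385) in 11 of 12 mice.

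Summed per kb, the 5 binding proteins came to 154 ± 26 CPM per kb (SD, n = 10) in P6 mice, 146 ± 53.8 (n = 12) in P15 mice and 67 ± 20 (n = 12) in 8-week mice. Igfbp4 made up 47.7% of that sum at P6, 42.1% at P15 but 29% at 8 weeks. The share of Igfbp7 was 14.9%, 19.4% and 30.8%. The ratio of Igf1 to the sum had a median of 0.0921 (0.0493 to 0.178) at P6, 0.0303 (0.00395 to 0.0434) at P15 and 0.0282 (0.0111 to 0.0432) at 8 weeks. Each P6 mouse had a higher ratio than any older mouse, and the ratios of the older ages overlapped.

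**Figure D3:**
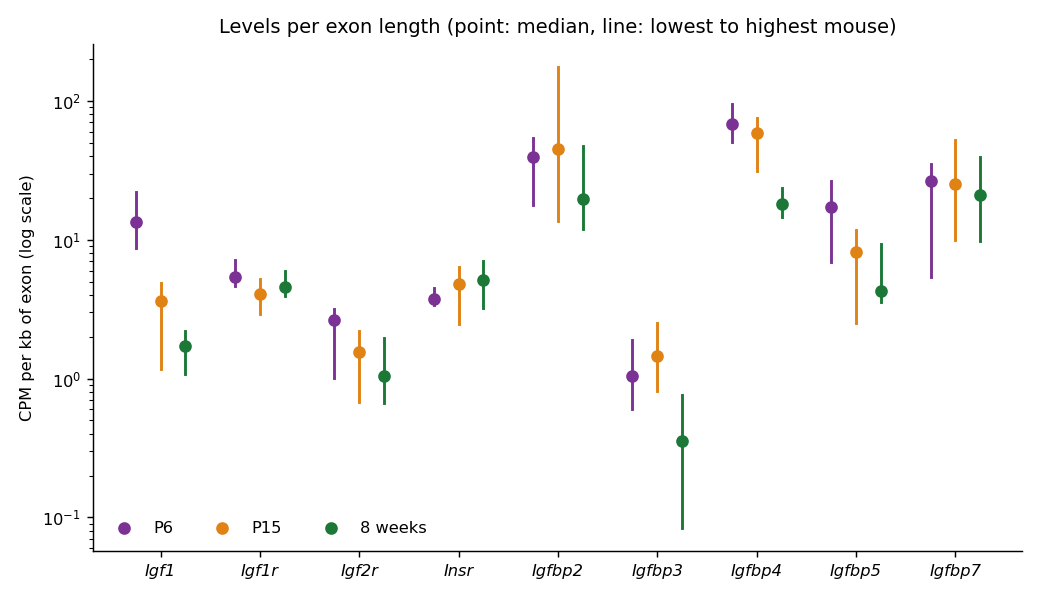
Level of each gene in CPM per kb of exon (y axis, log scale) at P6, P15 and 8 weeks, where points are medians and lines run from the lowest to the highest mouse. Igf1 drops from among the binding proteins at P6 to below Igf1r at 8 weeks, and Igfbp3 is the lowest of the 9 at 8 weeks.

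None of the 9 genes differed between males and females at any age (edgeR, FDR below 0.05). At P6 0.0511% of all genes were called between sexes (9 genes), at P15 0.0681% (12 genes) and at 8 weeks 0.114% (20 genes). At an unadjusted p below 0.05 edgeR had 1250 of the 17612 genes tested at P6, 3200 at P15 and 518 at 8 weeks. Of the 9 genes there was 1, Insr at P15. Its mean was lower in males (57.9 against 73.6 CPM, log2FC −0.35, edgeR FDR = 0.255). DESeq2 called none of the 9 either. At an unadjusted p below 0.05 it had 2 of them at P15, beside 3628 of all genes, and none at P6 or 8 weeks. The interval of the sex difference remained wide for some genes. For Igfbp7 at 8 weeks it ran from −0.86 to 0.88 on the log2 scale.

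No gene showed an interaction of sex and age, that is, 0% of the 17612 genes at an FDR below 0.05. At an unadjusted p below 0.05 there were 2083 of all genes and 0 of the 9. The FDR of the 9 genes lay between 0.553 (Insr) and 0.995 (Igf2r). The interaction was tested with edgeR alone.

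Within the age and sex groups, some pairs of the 9 genes varied together and others in opposite directions. After subtraction of the age and sex group means, Igfbp5 and Igf2r had a Pearson r of 0.843 over 34 mice, Igfbp2 and Igf2r 0.749, Igfbp2 and Igfbp7 0.738, and Igf1r and Insr 0.705. The most negative values were those of Igf1 and Igfbp2 (−0.759), Igfbp4 and Igfbp5 (−0.689), Insr and Igfbp2 (−0.606) and Igf1r and Igfbp4 (−0.604). In the first of these pairs P15 male 1 was the lowest P15 mouse for Igf1 and stood far above the others for Igfbp2. The value of r without that mouse is not given here. These values describe libraries that share their depth and cell makeup, and no test was made of them.

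By the same measure, the genes most like Igfbp7 were Col4a2 (r = 0.98), Col4a1 (0.98) and Bgn (0.97), which encode basement membrane collagens and a matrix proteoglycan. The nearest to Igfbp2 were Wnt7b, Htra1 and Gpr37l1, each at 0.96. Igfbp3 was nearest to the endothelial genes Cldn5 (0.69) and Slc38a5 (0.68) and to Plxnd1 (0.66). The nearest to Igfbp5 were Ppp2r2b, Neo1 and Pard3 (0.95 each). Igf2r was nearest to Inhbb, Myh14 and Pacsin3 (0.94, 0.94 and 0.93), and Igfbp4 to Psmb9, Rhog and Rgs19 (0.94 each).

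Within the groups the nearest genes to the ligand and the kinase receptors were Arcn1, Lypla1 and Efr3a for Igf1 (0.92, 0.92 and 0.91), Cdk5rap2, Helq and Dido1 for Igf1r (0.87, 0.85 and 0.84) and Zbtb37, Tnrc6b and Xrn1 for Insr (each 0.94). Across all 34 mice, age differences included, Igf1 was nearest to Diaph3 (0.98), Lpl (0.97) and Kif23 (0.97), of which Diaph3 and Kif23 act in cell division and Lpl is lipoprotein lipase. Igfbp4 was nearest to Pf4 and Fcna (0.97 each) and to Slc43a1 (0.97). Pf4 is one of the border macrophage and monocyte markers.

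Across the ages the other nearest genes were Ehd2, Esam and Myl9 for Igfbp7 (0.95, 0.93 and 0.92), Tm7sf2, Cadm4 and Fkbp10 for Igfbp2 (0.97, 0.96 and 0.95), Tmem40, Dip2a and Clec2l for Igfbp3 (0.84, 0.83 and 0.82), and Ppp2r2b, Neo1 and Cnn3 for Igfbp5 (each 0.98). For the receptors they were Ralgapa2, Cdk5rap2 and Cplane1 for Igf1r (0.91, 0.88 and 0.87), Tgfb2, Cdh2 and Pam for Igf2r (each 0.95) and Nf1, Prr14l and Ino80d for Insr (0.94, 0.94 and 0.93). All these values are over 34 mice and 13068 genes with a mean log2 CPM above 1.

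The levels of cell type markers moved with several of these genes, and their part in the results was not tested. Mural markers summed to between 129 and 1180 CPM at P6, 131 and 1100 CPM at P15 and 171 and 1070 CPM at 8 weeks. The lowest sum at P6 (P6 male 5), at P15 (P15 male 6) and at 8 weeks (8-week male 3) came with the lowest Igfbp7 of each age (6.52, 12 and 11.9 CPM). The highest sum came with the highest Igfbp7 at P6 (male 2) and P15 (male 4), and at 8 weeks the highest sum was in female 1 and the highest Igfbp7 in male 4. No mural marker changed from P6 to P15 or from P15 to 8 weeks, and 1 of 6 was lower at 8 weeks than at P6.

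Astrocyte marker sums were higher at the older ages (458 to 1170 CPM at P6, 758 to 6850 CPM at P15 and 1460 to 4370 CPM at 8 weeks, with 4 of 6 higher and 1 lower at 8 weeks than at P6), whereas Igfbp2 fell. Within an age the lowest astrocyte sums, in P6 male 5 and P15 male 6, were those of the lowest Igfbp2 (33.0 and 25.3 CPM), but at 8 weeks the lowest sum, in male 4 (1463 CPM), came with an Igfbp2 of 52.1 CPM, above the median of that age. The highest sum and the highest Igfbp2 were in the same mouse at 8 weeks (female 1, 87.8 CPM) and in different mice at P6 (male 2 and male 6) and at P15, where female 2 (6850 CPM of markers) had 89.0 CPM of Igfbp2 and male 1 (3849 CPM of markers) had 324 CPM. Border macrophage and monocyte markers were between 719 and 1570 CPM at P6, 280 and 1020 CPM at P15 and 359 and 711 CPM at 8 weeks, and 6 of 8 fell and 2 rose after P15, when Igfbp4 fell. Endothelial markers rose (5 of 8 from P6 to 8 weeks, 0 lower) as Igfbp3 fell. Fibroblast markers (5 of 5) and immature neuron markers (5 of 5) fell over the period, as did 4 of 6 neuron markers, and 1 rose. Igfbp5 fell as well, and was set beside the immature neuron list after its values were seen. The lowest sum and the lowest Igfbp5 were in the same mouse at P6 (male 5) and P15 (male 6), and at 8 weeks in male 2 and female 2. The highest of both were in the same mouse at P15 (male 1) and 8 weeks (female 1), and at P6 in male 3 and male 4. Of the 7 oligodendrocyte markers 4 rose and 3 fell, and of the 3 measured choroid plexus markers 1 rose and 1 fell.

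**Figure D4:**
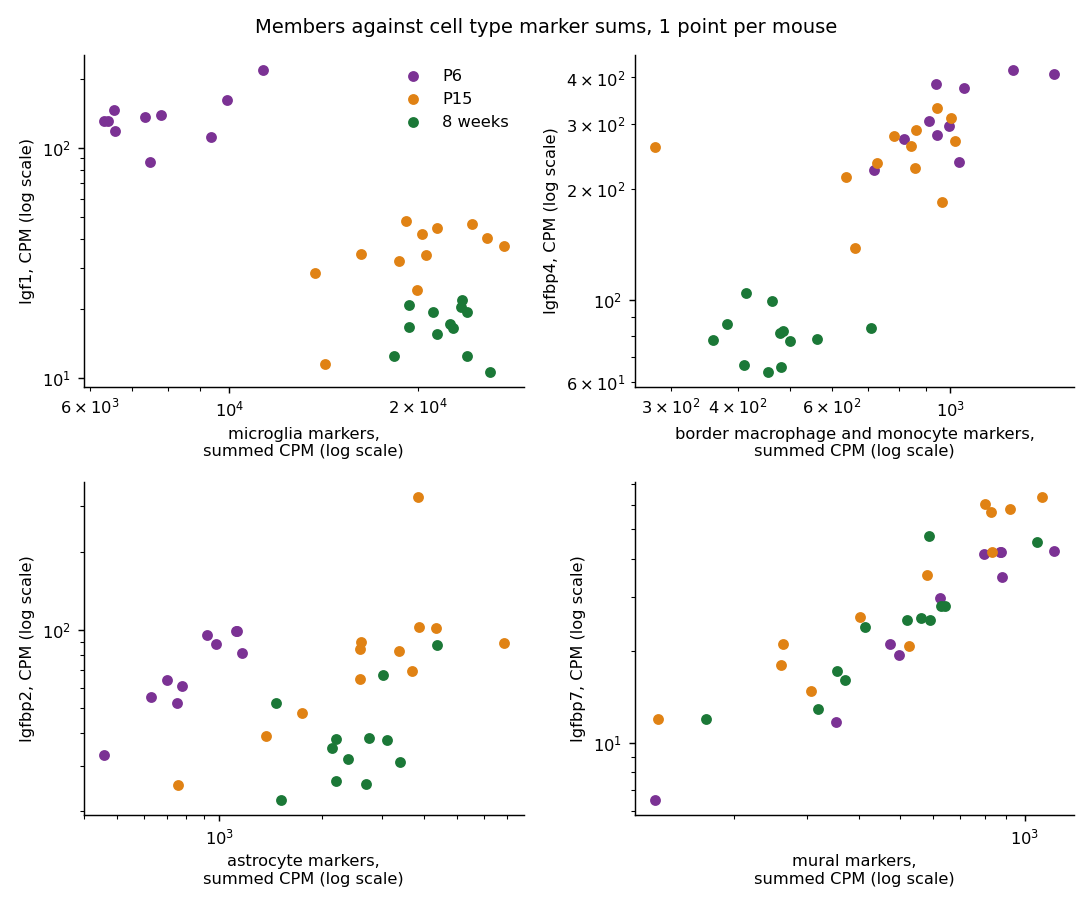
CPM of Igf1, Igfbp4, Igfbp2 and Igfbp7 (y axes, log scale) against the summed CPM of microglial, border macrophage and monocyte, astrocyte and mural markers (x axes, log scale), with 1 point per mouse coloured by age. The pairs were chosen after their values were seen. Igfbp7 and mural markers lie along a band shared by the 3 ages, while the P6 mice had more Igf1 and less of the microglial markers than the older mice.

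A few libraries stood at the edge of their age for several genes. P15 male 1 was the lowest P15 mouse for Igf1, Igf1r (48.9 CPM) and Insr (33.9 CPM) and the highest for Igfbp2, Igf2r (20.6 CPM) and Igfbp5 (70.1 CPM). It also had the most oligodendrocyte (3320 CPM), neuron (693 CPM), immature neuron (741 CPM), fibroblast (224 CPM) and choroid plexus (134 CPM) marker RNA of the P15 mice. Its border macrophage and monocyte marker RNA (280 CPM) was the least of that age. Without it, the log2FC of Igf1 was −1.83 from P6 to P15 and −1.19 from P15 to 8 weeks. P6 male 5 had the highest Igf1 and the lowest Igf2r, Igfbp2, Igfbp5 and Igfbp7 of its age, with the highest microglial (11300 CPM) and border macrophage and monocyte (1570 CPM) marker sums and the lowest mural (129 CPM), fibroblast (58.8 CPM), astrocyte (458 CPM), oligodendrocyte (270 CPM) and immature neuron (577 CPM) sums of the P6 mice. Without it the log2FC of Igf1 from P6 to 8 weeks was −2.92.

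With P6 female 6 added back, Igf1 had 51.1 CPM in that mouse, below every other P6 mouse and above the P15 mice. Its microglial markers summed to 2830 CPM, and its Igfbp2 (176 CPM), Igfbp3 (12.5 CPM), Igf2r (43.3 CPM), Igfbp5 (164 CPM) and Igfbp7 (46.6 CPM) were above those of all other P6 mice. With it, the log2FC of Igf1 from P6 to 8 weeks was −2.90, and 7 of the 9 genes still fell over the period.

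Around these genes, 57 further genes of the IGF and insulin pathway were listed by role, and 52 passed the filter. Ins1, Ins2, Insrr, Igfbp1 and Igfals did not, with at most 0, 6, 10, 5 and 16 counts in any mouse. From P6 to 8 weeks 16 of the 52 rose, 23 fell and 13 passed neither way, with a median log2FC of −0.08, and past 2-fold 5 rose and 6 fell. With library size alone, limma-voom or DESeq2, 2 rose past 2-fold. From P6 to P15 it was 14 up and 19 down (median −0.06; 2 and 1 past 2-fold), and from P15 to 8 weeks 9 up and 13 down (median −0.07; 0 and 1 past 2-fold). The shares and medians of all genes stand with the 9 genes above, and no test of the list as a whole was made.

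Among ligands, Igf2, the imprinted fetal growth factor, fell from 5.62 ± 1.2 CPM at P6 and 3.33 ± 1.09 CPM at P15 to 0.794 ± 0.282 CPM at 8 weeks (SD). Its log2FC was −2.05 after P15 (SE 0.196, FDR = 5.95e-10) and −2.80 over the period (SE 0.204, FDR = 1.08e-13). Both measured ligand genes of the axis were thus lower at 8 weeks than at P6.

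The proteases and their inhibitors took different directions. Htra1, a secreted serine protease that cuts IGF binding proteins, rose from 37.8 ± 15 CPM at P6 to 337 ± 242 CPM at P15 and stood at 253 ± 112 CPM at 8 weeks (log2FC 2.71 over the period, SE 0.35, FDR = 3.39e-08). It was also one of the nearest genes to Igfbp2 within the groups. Pappa, the IGFBP4 protease, was near the limit of counting, with 4 to 31 counts per mouse at P6 and 0 to 13 at 8 weeks (log2FC −2.27, SE 0.615, FDR = 0.00143), and Pappa2 was likewise low (0.607 CPM at P6 and 0.216 CPM at P15, log2FC −1.38, FDR = 0.046). Stc1, an inhibitor of these proteases, fell from 2.67 ± 0.945 to 0.529 ± 0.192 CPM over the period (log2FC −2.36, FDR = 3.72e-07).

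Of the 8 receptor adaptors 3 fell from P6 to 8 weeks and none rose. Grb10, an imprinted adaptor that restrains signalling of both kinase receptors, fell from 31.1 ± 10.3 to 8.22 ± 3.87 and 4.06 ± 1.52 CPM (log2FC −2.96 over the period, SE 0.278, FDR = 4.3e-11). Irs1, the docking protein of both kinase receptors, fell from 20.8 ± 10.4 to 5.19 ± 2.04 CPM (log2FC −2.04, SE 0.289, FDR = 1.89e-07). Its relative Irs2 rose after P15, from 47.2 ± 11 to 64 ± 11.5 CPM (log2FC 0.45, FDR = 0.0012).

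Of 11 genes for PI3K and AKT, 6 rose and 3 fell over the period. Pik3r5 (39.7 ± 8.82 to 150 ± 17.5 CPM, log2FC 1.96, FDR = 1.19e-14) and Pik3cg (127 ± 30.9 to 310 ± 44.7 CPM, log2FC 1.33, FDR = 8.11e-10) encode a regulatory and the catalytic subunit of PI3K gamma, the form used by white blood cells. Pik3r1, the regulatory subunit recruited by IRS proteins, rose by 1.28 on the log2 scale (FDR = 2.79e-09), and Pik3cb rose after P15 by 0.54 (FDR = 0.000151).

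Further along the pathway, 3 of 4 phosphatases rose over the period, among them Inpp5d, the SHIP1 phosphatase of blood cells (535 ± 123 to 1220 ± 181 CPM, log2FC 1.22, FDR = 1.79e-10). Foxo1, a transcription factor that AKT keeps out of the nucleus, rose from 25.5 ± 4 to 50.1 ± 5.29 CPM from P6 to P15 (log2FC 0.98, FDR = 7.5e-12). Of the 8 mTOR genes 2 rose and 2 fell over the period, and Rictor rose after P15 (log2FC 0.69, FDR = 0.0016). Eif4ebp1 fell from P6 to P15 (log2FC −0.64, FDR = 0.000184) and rose after P15 (0.43, FDR = 0.00765), with −0.21 (FDR = 0.174) over the whole period. Of the 8 RAS and MAPK genes 1 rose and 6 fell, and after P15 Hras (−0.93, FDR = 1.64e-08) and Nras (−0.38, FDR = 0.000262) were among those that fell.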

How the data were processed

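Whole-brain CD45+ cells of 35 C57BL/6 mice gave 1 directional mRNA library each. The authors sequenced paired-end reads, aligned them to GRCm38/mm10 with STAR and counted fragments by strand with featureCounts, and deposited raw counts per gene without normalisation. The submitters' processing notes also name fastp 0.20.0 and Subread. The annotation release is not given in the sources used here. Every value column was matched to a sample (0 were unmatched).

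Genes were named from GENCODE M21 (55141 of 55401 identifiers). A gene was kept if 5 or more mice reached 0.5 CPM, and TMM scaled the libraries. In R 4.3.3, edgeR 4.0.16 (robust quasi-likelihood fit, 1 mean per age and sex group, 34 mice) tested age contrasts that average the sexes, sex at each age and their interaction, all two-sided, with Benjamini-Hochberg adjustment over all genes kept (FDR below 0.05), and glmTreat tested a 2-fold threshold. Log2 CPM used a prior count of 2. CPM per kb divides by the exon union. The fit was tested on simulated data with known changes before use. Figures were drawn with Python 3.11.15 and matplotlib 3.10.9.

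Depth was 23316107 to 38965078 counted fragments per mouse, and the limit of 3 counts covers counting error only. Each mouse is a separate animal. No 2 libraries of a group were copies, since the lowest chi-square per gene over 85 pairs was 12.8. The labels name no batch. Mice that share a number in the labels are different animals, and the numbers were not used for pairing.

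The 9 genes, the 57 pathway genes and the marker lists were chosen with earlier results of these data known. All 9 genes are named, with the 5 largest changes in each direction at an FDR below 0.05 in the pathway list per age contrast, and, per gene, the 3 with the highest Pearson correlation of log2 CPM over the 34 mice, with and without the group means. A result for 1 pathway gene within this rule is not reported here. Alternatives were all 35 mice, library size alone, DESeq2 size factors, limma-voom (limma 3.58.1), DESeq2 1.42.0, no filter, at least 10 counts in every mouse, only the 2 ages compared, age without sex, a replicate block, and leaving out each P6 female. Leaving out P15 male 1, 8-week male 4, 8-week female 1 or P6 male 5 was chosen after seeing the data. The miRNA data were not used here.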

Additional observations from a re-analysis of the deposited data

Results flagged for a closer look

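Within the groups of age and sex, 54 sets of 1 gene were examined on the log2 CPM scale for a single mouse whose gap to the next took an unusually large part of the range (Dixon's 95% limit), and 3 had one. Chance gives about 1 in 20 such sets. Igf1 was 11.5 CPM in P15 male 1, where the next P15 male had 32.1 CPM, and 10.6 CPM in 8-week male 4, where the next 8-week male had 17.1 CPM. In P6 female 5, Igfbp5 was 75.9 CPM, while the next P6 female had 125 CPM. Without P15 male 1 the log2FC of Igf1 was −1.83 from P6 to P15 and −1.19 from P15 to 8 weeks, and without 8-week male 4 it fell by 0.999 on the log2 scale from P15 to 8 weeks. On the CPM scale the same limit set apart 3 other values, those of P15 male 1 for Igfbp2 (324 against 102 CPM in the next P15 male), 8-week female 1 for Igfbp5 (55.5 against 33.7 CPM) and P6 male 4 for Insr (62.1 against 53.3 CPM), and none of the 3 values above. P15 male 1 had the lowest border macrophage and monocyte marker sum of its age (280 CPM), and the 8-week male had the highest endothelial (332 CPM) and microglial (26030 CPM) sums and the lowest astrocyte sum (1463 CPM) of its age. The part of these in the low Igf1 was not tested.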

How the results depend on the processing

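Over 18 alternatives, the falls of Igf1, Igfbp4 and Igfbp5 from P6 to 8 weeks kept their direction and stayed at an FDR below 0.05, with log2FC between −3.12 and −2.90, −2.12 and −1.92, and −1.95 and −1.73. Igfbp3 (17 alternatives, since the filter of 10 counts in every mouse removed it) did too, between −1.88 and −1.55, but with DESeq2 it did not pass 2-fold (FDR = 0.142), so 3 of the 9 genes did in place of 4. With library size alone, 0 of the 9 genes rose from P6 to P15 and 0 from P15 to 8 weeks, and the median of all genes from P6 to 8 weeks moved from 0.038 to −0.103, with 5676 higher and 7330 lower in place of 6654 and 6443. With no filter 0 rose from P15 to 8 weeks, and leaving out single mice gave 0 to 1. The rise in question was that of Igf1r. With at least 10 counts in every mouse, 1 of the 9 genes fell past 2-fold after P15, because Igfbp3 was not among the genes tested. The number of pathway genes that rose past 2-fold from P6 to 8 weeks was 2 with library size alone, 2 with limma-voom, 2 with DESeq2, 3 with 10 counts in every mouse and 3 with age without sex, and 3 to 5 with single mice left out. The cause was not tested. Igfbp2 changed sign from P6 to P15 without P15 male 1 (log2FC −0.064, and up to 0.33 with other mice left out), in no case past the threshold. The range for Igfbp5 from P6 to P15 was −1.27 to −1.11. Of 80 pairs of mice with the same number, correlations of deviations from the group means ran from −0.536 to 0.691. Their median was 0.033, against −0.011 for the 400 other pairs. The best match of 12 of 34 mice had their own number, and whether that is more than chance gives was not tested. With the replicate block the counts of the 9 genes were 1 higher and 5 lower, 1 higher and 5 lower, and 1 higher and 7 lower in the 3 comparisons, as without it, and the log2FC of Igf1 from P6 to 8 weeks was −3.00. Counts of 9 to 83 per mouse limit the precision of Igfbp3 at 8 weeks.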
